A study of Mus musculus with 6 samples.

Results

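The 44 genes described here act in DNA replication (16 S-phase genes) and in mitosis (28 mitotic genes), and were followed in mammary glands of mice on a high-fat or a control diet. They were chosen by function, as named genes, and found on the array through the RefSeq accessions of its non-control probes. All 44 of 44 were measured, among 23460 genes or unnamed transcripts tested. All 58 probes that name them passed the filter, a signal well above background on 3 or more arrays, and 43 of the genes were above background on all 6. RNA came from 6 female mice, 1 single-colour array each. Every mouse, the controls included, carried the Trp-53 knockout (Trp53-/-), so that no comparison here tests the loss of p53. The high-fat group (HFD, 3 mice) and the control group (CD, 3 mice) were put on their diets at 3 weeks of age and stayed on them for 5 weeks, and the glands were taken at 8 weeks. The labels call the source mammary glands and the profile that of mammary epithelial cells, and it is not known whether whole glands or cells isolated from them gave the RNA. The series title places its question at c-Myc in the mammary epithelium, whose targets include genes of cell division.

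A cell that commits to division first turns on, through E2F transcription factors, the genes that load and fire replication origins and that supply nucleotides. Later, in G2, a different set is released from repression and raised by B-MYB and FOXM1, and its products condense chromosomes, build the spindle, attach kinetochores and cut the cell apart. In the pubertal mammary gland, divisions are frequent in the growing duct ends and include luminal and basal epithelial cells. Because RNA was taken in bulk, fewer dividing cells and less RNA of these genes per cell cannot be told apart.

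The S-phase and mitotic genes differ in part in the motifs of their promoters, counted below. Stretches of 100 bases from 7 genes are shown, chosen because they hold the letters looked for in each class. All are from RefSeq on build GRCm38.p6, written 5′ to 3′ on the strand of the gene. For Mcm6, Mcm5 and Cdc6 capitals mark matches to an E2F site, and for Cdc20, Cdk1, Ccnb1 and Kif11 they mark matches to the cell cycle homology region or to the CCAAT box, on either strand. Matches that overlap run together in capitals, as in Mcm6 and Mcm5.
Mcm6: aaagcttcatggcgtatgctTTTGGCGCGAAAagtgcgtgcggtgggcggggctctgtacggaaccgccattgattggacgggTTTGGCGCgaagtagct
Mcm5: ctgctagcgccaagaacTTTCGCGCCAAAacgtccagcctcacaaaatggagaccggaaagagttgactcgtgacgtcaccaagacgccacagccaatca
Cdc6: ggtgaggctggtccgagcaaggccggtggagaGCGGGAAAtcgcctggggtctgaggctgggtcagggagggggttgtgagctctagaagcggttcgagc
Cdc20: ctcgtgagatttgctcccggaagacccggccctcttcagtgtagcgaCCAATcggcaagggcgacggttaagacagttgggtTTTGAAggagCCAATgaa
Cdk1: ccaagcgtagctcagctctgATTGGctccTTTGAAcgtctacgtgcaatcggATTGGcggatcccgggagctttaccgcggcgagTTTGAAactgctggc
Ccnb1: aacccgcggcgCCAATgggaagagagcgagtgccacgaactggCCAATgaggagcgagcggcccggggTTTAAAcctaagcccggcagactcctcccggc
Kif11: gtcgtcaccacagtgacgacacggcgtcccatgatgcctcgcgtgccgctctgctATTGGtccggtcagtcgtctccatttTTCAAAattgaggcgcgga
The Mcm6 stretch lies at chr1:128359736-128359835 (minus strand), that of Mcm5 at chr8:75109339-75109438 (plus strand) and that of Cdc6 at chr11:98907981-98908080 (plus strand). The mitotic stretches lie at chr4:118437344-118437443 (minus strand) for Cdc20, chr10:69352913-69353012 (minus strand) for Cdk1, chr13:100786497-100786596 (minus strand) for Ccnb1 and chr19:37376282-37376381 (plus strand) for Kif11. A promoter window, from 250 bases before the transcription start to 50 after it, was at hand for 35 of the 44 genes, 12 of the S-phase and 23 of the mitotic class. Aurkb, Ccna2, Ccne2, Foxm1, Gins1, Gins2, Kif20a, Mcm4 and Tpx2 had none.

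Motifs of 3 kinds were searched on both strands of those windows. A gene was counted if any of its windows held a match, as Mcm7 and Prc1 had more than 1. The E2F site was taken as TTTCCCGC or TTTGGCGC or TTTCGCGC or TTTGCCGC. It was found in 6 of 12 S-phase genes (50%), namely Cdc6, Cdt1, Mcm3, Mcm5, Mcm6 and Mcm7. It was also found in 1 of 23 mitotic genes (4.35%), Cdk1, and in 2.6% of all 27025 genes with a window. The cell cycle homology region was taken as TTTGAA or TTTAAA or TTCGAA or CTTGAA. It was found in 21 of 23 mitotic genes (91.3%), in 5 of 12 S-phase genes (41.7%) and in 40.8% of all genes with a window. The CCAAT box, taken as CCAAT, was found in 17 of 23 mitotic genes (73.9%), 7 of 12 S-phase genes (58.3%) and 41.1% of all genes with a window. The matches describe letters in these windows and were not tested against the expression values.

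Each array had between 27203 and 29412 probes well above background, and no spot was saturated. The 75th percentile of signal, to which each array was scaled, lay between 1326 intensity units, in control replicate 2, and 1973, in high-fat replicate 1. The number of arrays limits the precision. High-fat replicate 1 was on a slide of its own, high-fat replicates 2 and 3 shared a slide with control replicate 1, and control replicates 2 and 3 shared another. On the first principal component over all genes (46.7% of the variance), the scores were -56.0 and -50.1 for high-fat replicates 1 and 2, 7.35 and 0.58 for high-fat replicate 3 and control replicate 1, and 48.8 and 49.4 for control replicates 2 and 3. Of the labelled tissue's markers, 13 of 14 luminal and 10 of 10 basal epithelial genes were well above background on all 6 arrays, as were 8 of 8 fibroblast and 6 of 8 adipocyte genes. Leukocyte markers were also detected on all 6 arrays, 5 of 8 for macrophages, 4 of 9 for T cells (Cd3e, Cd4, Lck and Cd5) and 2 of 7 for B cells, while Ms4a1 of B cells, Cd3d, Cd3g and Cd8a of T cells, and Cd163 of macrophages were above background on 0 arrays. A level is a log2 signal relative to the 75th percentile of its array, listed for replicates 1 to 3, and differences are high-fat minus control on that log2 scale, with n = 3 mice per diet. The measured adipocyte markers were dim on average, with a mean level between -5.20 and -4.33 over the arrays. Those of macrophages (-4.83 to -4.02) and B cells (-6.53 to -5.84) were dim as well. The lowest level well above background on each array lay between -7.87 and -6.83. Levels of different genes come from different probes and are not set against each other.

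Between the diets, 0 of the 44 genes passed limma's test at an adjusted p of 0.05, a threshold that 0.0171% of all genes passed. At an unadjusted p under 0.05, 3 of the 44 were higher on the high-fat diet (Ndc80, Nusap1 and Kif23), against 5.88% of all genes, and 0 were lower, against 7.46%. In 3 of the 44 (Cdk1, Ndc80 and Nusap1) every high-fat value lay above every control value, against 8.47% of all genes, and in 0 every value lay below, against 8.75%. The shares on the higher side are near those of all genes. The sizes were small and mostly of 1 sign. Of the 44 differences, 41 were positive, against 49.0% of all genes, and their median was 0.18, against -0.01. With another background correction (normexp) and the same 75th percentile, 29 of 44 were positive with a median of 0.07. The median of all genes was then 0.27. Relative to it, the median of the 44 was -0.20, and 11 of 44 stood above it, against 41 in the scaling used here. With normexp and quantile normalization, the median of the 44 relative to that of all genes was 0.18, and 43 of 44 stood above it. Within the slide that held both diets, 20 of 44 were positive, with a median of -0.02.

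**Figure D1:**
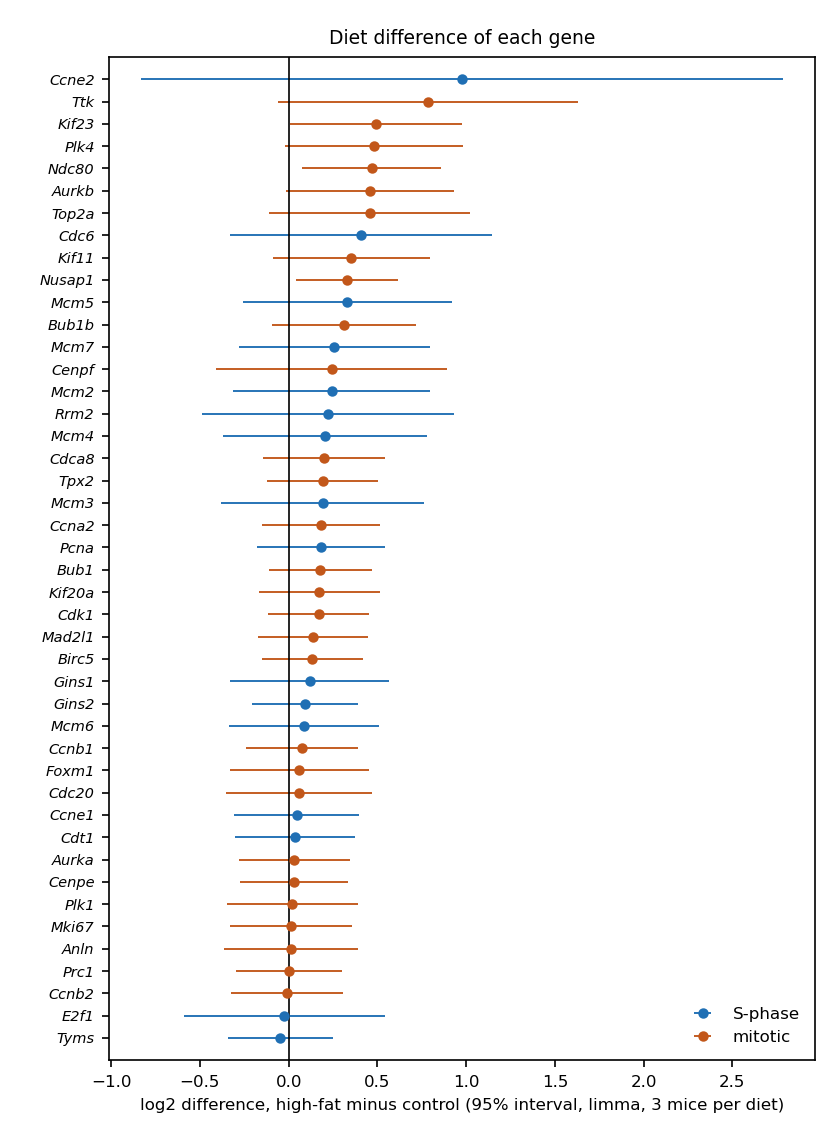
The log2 difference between diets (high-fat minus control, x axis) is plotted for each of the 44 genes (y axis, ordered by difference), with the 95% interval of the limma fit on 3 mice per diet, S-phase genes in blue and mitotic genes in orange. In this scaling 41 points lie right of 0, but only the intervals of Ndc80, Nusap1 and Kif23 leave 0 out. With the normexp background and the 75th percentile 29 are positive, and 11 stand above the median of all genes. With normexp and quantile normalization 43 stand above it.

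The licensing and helicase genes load and start the replicative helicase, and their differences ran from 0.04 (Cdt1) to 0.41 (Cdc6), with a median of 0.20. All 10 were positive in this scaling, and 0 of 10 reached an unadjusted p of 0.05. Mcm2 to Mcm7 encode the ring of the helicase itself. Mcm5 (NM_008566) read 3.37, 3.43 and 2.63 on the high-fat arrays and 3.01, 2.64 and 2.80 on the control arrays. High-fat replicates 1 and 2 were above all 3 controls and high-fat replicate 3 was below them, so the diets overlapped, and the difference of 0.33 (SE 0.24) had an interval from -0.26 to 0.92. Mcm2 read 2.15, 2.27 and 1.61 against 1.97, 1.46 and 1.88 in controls, a difference of 0.24. Mcm7 read 4.08, 4.01 and 3.38 against 3.75, 3.36 and 3.59, a difference of 0.26. In both genes high-fat replicates 1 and 2 were the highest arrays and control replicate 2 the lowest. Mcm3 read 4.12, 3.99 and 3.35 against 3.83, 3.41 and 3.64, and Mcm4 read 4.28, 4.17 and 3.64 against 4.14, 3.51 and 3.83. Their differences were 0.19 and 0.20, with control replicate 1 close behind the upper high-fat arrays. Mcm6 read 5.18, 5.01 and 4.59 against 4.89, 4.79 and 4.83, a difference of 0.09. That difference turned to -0.02 with the normexp background and the 75th percentile, where the median of all genes was 0.27.

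Cdc6 and Cdt1 bring the helicase to the origin, and Gins1 and Gins2 are subunits of the GINS complex that joins it when it starts. Cdc6 (NM_011799) had values of 0.22, 0.03 and -0.74 on the high-fat diet and -0.19, -0.92 and -0.60 on the control diet. Its difference of 0.41 (SE 0.31, interval -0.33 to 1.15) lay within the spread of the mice, and high-fat replicate 3 was below 2 of the 3 controls. Cdt1 read 3.27, 3.25 and 2.93 against 3.11, 3.03 and 3.20, a difference of 0.04. Gins1 read 1.51, 1.31 and 0.89 against 1.23, 1.03 and 1.09, a difference of 0.12. Gins2 read 0.66, 0.71 and 0.56 against 0.70, 0.48 and 0.48, a difference of 0.09. In Cdt1 and Gins1 high-fat replicate 3 was again the lowest of the 6 arrays.

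**Figure D2:**
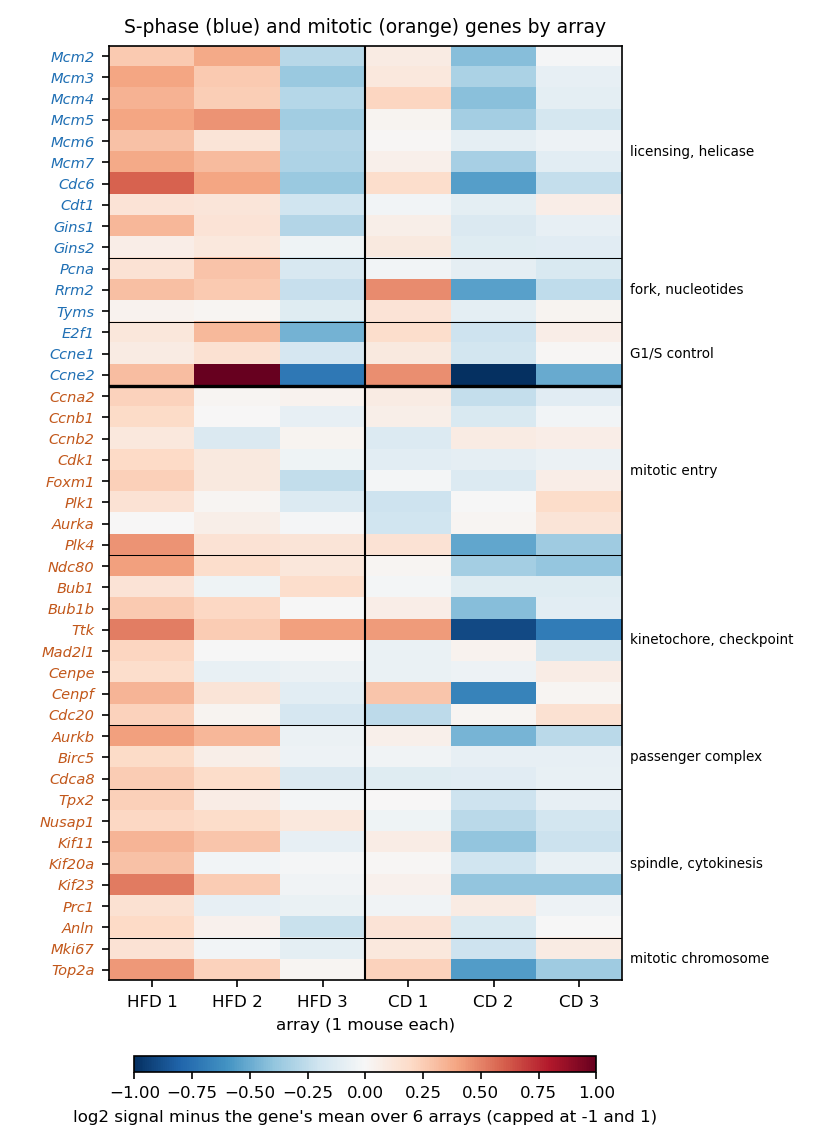
The heat map shows, for each of the 44 genes (rows, grouped by role, S-phase names in blue and mitotic names in orange) and each array (columns, 3 high-fat and 3 control mice), the log2 signal minus the gene's mean over the 6 arrays, capped at -1 and 1. High-fat replicate 1 is the highest array in 25 of 28 mitotic genes, whereas the S-phase genes are low on high-fat replicate 3 and control replicate 2, each the lowest array in 8 of 16.

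At the replication fork, Pcna encodes the sliding clamp of the DNA polymerases, while Rrm2, a subunit of ribonucleotide reductase, and Tyms, thymidylate synthase, supply nucleotides. Pcna read 4.83, 4.98 and 4.53 against 4.66, 4.59 and 4.54 in controls. High-fat replicates 1 and 2 were above the controls and high-fat replicate 3 was just below them, with a difference of 0.18. Rrm2 read 4.49, 4.46 and 3.97 against 4.66, 3.65 and 3.94. Its highest value was that of control replicate 1, and its difference of 0.22 became -0.45 within the slide that held both diets. Tyms (NM_021288), 1 of the 3 genes with a negative difference, read -2.21, -2.23 and -2.37 against -2.11, -2.34 and -2.21. That difference, -0.05 (SE 0.12, interval -0.34 to 0.25), was smaller than the spread of either diet. With the normexp background and the 75th percentile it was 0.24, in a fit where the median of all genes was 0.27.

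The controllers of entry into S phase spread over the widest range. E2f1, a transcription factor that activates many replication genes, read 1.39, 1.61 and 0.81 on the high-fat diet and 1.46, 1.08 and 1.35 on the control diet (NM_007891). Its difference was -0.02 (SE 0.23, interval -0.59 to 0.54), with high-fat replicate 2 the highest and high-fat replicate 3 the lowest array. Ccne1, which encodes a cyclin E that activates CDK2, read 2.26, 2.34 and 2.02 against 2.29, 2.00 and 2.19, a difference of 0.05. Ccne2 (NM_001037134), the other cyclin E gene, was well above background on only 2 high-fat and 2 control arrays, and read -6.58, -5.01 and -7.60 against -6.42, -8.31 and -7.38. Its difference of 0.98 was the largest of the 44, but with an SE of 0.75 and an interval from -0.83 to 2.78 it was also the least precise. The G1/S genes thus gave no call in either direction.

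Of the 8 genes of mitotic entry, 7 had positive differences with a median of 0.07, and 0 passed at an unadjusted p of 0.05. Ccna2, Ccnb1 and Ccnb2 encode the cyclins that drive CDK1. Ccna2 read 3.00, 2.78 and 2.80 against 2.85, 2.53 and 2.65, a difference of 0.18. Ccnb1 read 2.87, 2.68 and 2.60 against 2.74, 2.53 and 2.65, a difference of 0.08. Ccnb2 (NM_007630) read 3.50, 3.25 and 3.43 against 3.26, 3.48 and 3.46, a difference of -0.01 (SE 0.13, interval -0.33 to 0.31). In all 3 cyclins the diets overlapped, and the sign of Ccnb2 turned in 4 of the other scalings tried, where it was 0.01 to 0.02. Cdk1, the kinase itself, read 2.58, 2.47 and 2.34 against 2.27, 2.29 and 2.32. Its high-fat values all lay above its control values, though high-fat replicate 3 only narrowly, and its difference of 0.17 (SE 0.12) had an unadjusted p of 0.20 in limma.

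Foxm1, a transcription factor that activates G2 and mitotic genes, read 0.92, 0.77 and 0.43 against 0.66, 0.54 and 0.74, a difference of 0.06. The mitotic kinases Plk1 and Aurka differed by 0.02 and 0.03. Plk1 read 4.10, 3.98 and 3.82 against 3.74, 3.95 and 4.14, so that its highest and lowest arrays were both controls. Aurka read 3.25, 3.30 and 3.23 against 3.05, 3.26 and 3.37, with the same order among the controls. Plk4 (NM_011495), the kinase that starts the duplication of centrioles, read -1.10, -1.41 and -1.42 against -1.41, -2.07 and -1.91. Control replicates 2 and 3 lay well below the other arrays, and control replicate 1 lay among the high-fat values. The difference was 0.48 (SE 0.21, interval -0.02 to 0.98, adjusted p 0.379 in limma), and -0.01 within the slide that held both diets.

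The kinetochore links chromosomes to spindle fibres, and the spindle checkpoint holds the cell until all are attached. All 8 genes of this role had positive differences in this scaling, with a median of 0.21, and 1 of 8 passed at an unadjusted p of 0.05, against 5.88% of all genes. Ndc80 (NM_023294), the kinetochore subunit that binds microtubules, read 0.12, -0.11 and -0.17 on the high-fat diet and -0.27, -0.63 and -0.67 on the control diet. The diets did not overlap, with control replicate 1 nearest to the high-fat arrays. The difference was 0.47 (SE 0.16, interval 0.08 to 0.86, limma p 0.026, adjusted p 0.339), and 0.13 within the slide that held both diets. Ttk (NM_009445), the kinase MPS1 at the head of the checkpoint, read -1.85, -2.11 and -1.95 against -1.93, -3.26 and -3.06. Control replicate 1 lay among the high-fat arrays, and the other controls lay far below all of them. The difference was 0.78 (SE 0.35, interval -0.06 to 1.63, adjusted p 0.385 in limma) over all arrays and -0.09 within the slide.

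Bub1 and Bub1b encode a kinase and a related protein of the same checkpoint, and Mad2l1 encodes the protein that inhibits CDC20. Bub1 read 0.43, 0.25 and 0.48 against 0.28, 0.18 and 0.17, a difference of 0.18. Bub1b read 0.73, 0.67 and 0.46 against 0.53, 0.04 and 0.35, a difference of 0.31. Mad2l1 read 2.72, 2.51 and 2.50 against 2.44, 2.54 and 2.33, a difference of 0.14. In each of the 3 at least 1 control lay above at least 1 high-fat array. Cdc20, the activator of the anaphase-promoting complex whose promoter is printed above, read 4.37, 4.16 and 3.97 against 3.87, 4.16 and 4.29, a difference of 0.06. Cenpe, a kinetochore motor, read 3.37, 3.12 and 3.13 against 3.12, 3.14 and 3.26, a difference of 0.03. Cenpf, a large kinetochore protein, read -5.01, -5.22 and -5.45 against -5.07, -6.01 and -5.32, a difference of 0.24. None of these 6 reached an unadjusted p of 0.05.

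Aurkb, Birc5 and Cdca8 encode the kinase aurora B and its partners survivin and borealin in the chromosomal passenger complex, which corrects faulty attachments and later helps to divide the cell. Aurkb (NM_011496) read -4.06, -4.14 and -4.53 against -4.42, -4.94 and -4.74. A single control, replicate 1, was above high-fat replicate 3, and the difference was 0.46 (SE 0.20, interval -0.01 to 0.93, adjusted p 0.377 in limma). Birc5 read 5.22, 5.09 and 4.97 against 4.99, 4.95 and 4.94, a difference of 0.13. Cdca8 read 3.85, 3.78 and 3.45 against 3.48, 3.48 and 3.52, a difference of 0.20. In both the 3 controls lay close together, with high-fat replicates 1 and 2 above them and high-fat replicate 3 among or below them.

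The 7 genes of this role build the spindle and cleave the cell, and all had positive differences in this scaling, with a median of 0.19. Nusap1 (NM_133851), which bundles microtubules near chromosomes, read 1.12, 1.10 and 1.02 against 0.88, 0.65 and 0.73. Its diets did not overlap, and its difference was 0.33 (SE 0.12, interval 0.04 to 0.62, limma p 0.030, adjusted p 0.347). Within the slide that held both diets it was 0.19. Kif23 (NM_024245), a kinesin of the central spindle, read 1.28, 1.02 and 0.73 against 0.81, 0.38 and 0.37. Control replicate 1 was above high-fat replicate 3, so the diets overlapped, and the difference was 0.49 (SE 0.20, interval 0.01 to 0.98, limma p 0.047, adjusted p 0.373). Within the slide it was 0.07. Kif11, the kinesin that pushes spindle poles apart, read -0.82, -0.88 and -1.24 against -1.08, -1.55 and -1.37, a difference of 0.35.

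Tpx2, which activates aurora A on the spindle, read 2.47, 2.31 and 2.21 against 2.24, 2.03 and 2.15, a difference of 0.19. Kif20a, a kinesin of cytokinesis, read 3.21, 2.89 and 2.91 against 2.93, 2.72 and 2.84, a difference of 0.17. Both had high-fat replicate 1 as the highest array. Prc1, which crosslinks the central spindle, read 3.73, 3.50 and 3.52 against 3.55, 3.67 and 3.53. Anln, the scaffold anillin of the cleavage furrow, read 3.94, 3.79 and 3.52 against 3.88, 3.59 and 3.74. The differences of Prc1 and Anln were 0.003 and 0.01, with intervals from -0.30 to 0.30 and from -0.36 to 0.39.

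Mki67 and Top2a coat and untangle mitotic chromosomes and serve as common markers of dividing cells. Mki67 read 3.68, 3.51 and 3.44 against 3.64, 3.33 and 3.62. The difference of 0.01 (SE 0.14) had an interval from -0.33 to 0.36, and the lowest array was a control while 2 controls lay above high-fat replicate 2. Top2a read 1.97, 1.77 and 1.55 against 1.76, 0.98 and 1.18, a difference of 0.46 (SE 0.23, interval -0.11 to 1.02). In Top2a control replicate 1 lay close to high-fat replicate 2, and the other controls lay below every high-fat array.

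The S-phase and mitotic genes had diet differences of like size but varied differently over the arrays, a contrast described here without a test. Averaged over genes after removing each gene's mean, the S-phase genes stood at 0.26, 0.34 and -0.29 on the high-fat arrays and at 0.13, -0.34 and -0.11 on the control arrays. The mitotic genes stood at 0.26, 0.09 and -0.02 on the high-fat arrays and at 0.01, -0.23 and -0.11 on the control arrays. High-fat replicate 3 was below 2 of 3 controls in the S-phase mean and below 1 of 3 in the mitotic mean, so the diets overlapped in both. The diet difference was 0.21 for the S-phase mean (0.10 ± 0.34 against -0.10 ± 0.23, SD, n = 3) and 0.22 for the mitotic mean (0.11 ± 0.14 against -0.11 ± 0.12, SD, n = 3). The S-phase mean minus the mitotic mean was 0.00, 0.25 and -0.27 on the high-fat arrays and 0.12, -0.11 and 0.00 on the control arrays. It differed by -0.01 between diets, far less than the SD of 0.26 in the high-fat group. Without Ccne2, whose signal was near background, it differed by -0.06.

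Among the high-fat mice, the median SD of the S-phase genes was 0.33 and that of the mitotic genes 0.14, against 0.20 for all genes. Among the control mice these were 0.19, 0.15 and 0.21. The spread of the S-phase genes was thus wide in the high-fat group and not in the control group, a description over genes that share the same 3 mice. High-fat replicate 1 was the highest array in 25 of 28 mitotic genes (89.3%) and in 7 of 16 S-phase genes (43.8%), against 25.5% of all genes. High-fat replicate 2 was the highest in 7 of 16 S-phase genes and in 0 of 28 mitotic genes. The ranks thus set these arrays apart. They lay on different slides, so what is particular to the mouse and what to the slide cannot be told apart. The S-phase genes were about as high on high-fat replicate 2 as on replicate 1, while the mitotic genes were highest on replicate 1.

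**Figure D3:**
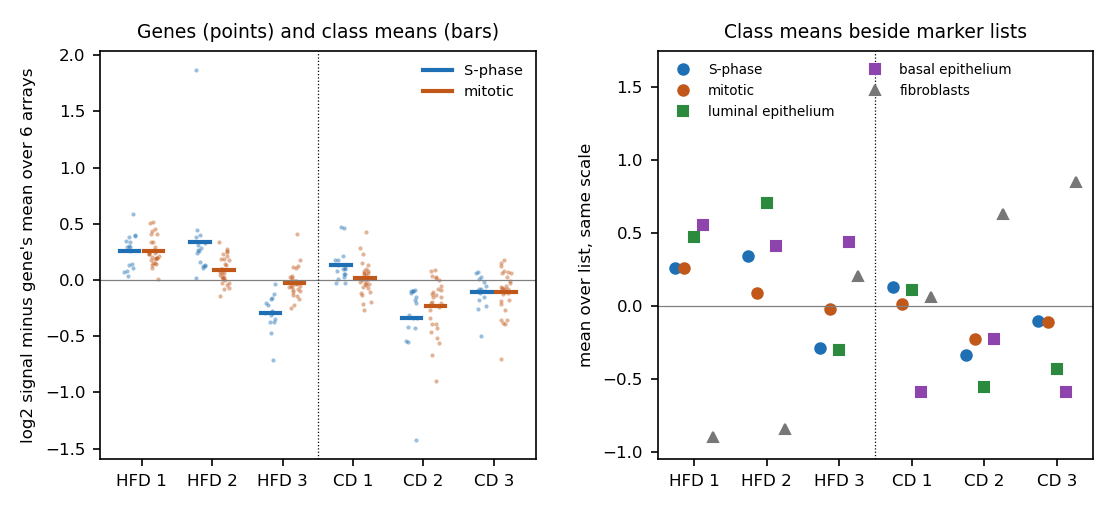
Left, each point is a gene's log2 signal minus its mean over the 6 arrays (y axis) on each array (x axis), and bars are the means of the 16 S-phase (blue) and 28 mitotic (orange) genes. Right, the same means are set beside those of luminal, basal and fibroblast markers. The S-phase mean lies between -0.34 and 0.34, and without Ccne2 between -0.26 and 0.26. It overlaps between diets, as do the mitotic and luminal means, while the basal mean separates the diets.

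Markers of cell types also differed between the arrays. The luminal list (14 of 14 measured, 12 with positive differences, median 0.67) stood at 0.47, 0.71 and -0.30 on the high-fat arrays and at 0.11, -0.56 and -0.43 on the control arrays. High-fat replicates 1 and 2 and then control replicate 1 were the highest arrays in that list, and in both the S-phase and the mitotic mean. The order of the first pair in the S-phase mean turned without Ccne2, to 0.26 on high-fat replicate 1 and 0.24 on high-fat replicate 2, whereas the luminal mean was higher on high-fat replicate 2. The basal list (10 of 10 positive, median 1.08) stood at 0.55, 0.41 and 0.44 against -0.59, -0.23 and -0.59, apart between the diets. The fibroblast list (0 of 8 positive, median -0.96) ran the other way, at -0.90, -0.84 and 0.20 against 0.06, 0.63 and 0.85. With the smallest p in these lists, Krt5 of basal cells differed by 1.27 (SE 0.16), Esr1 of luminal cells by 0.75 (SE 0.18) and Lum of fibroblasts by -1.80 (SE 0.33), with limma adjusted p of 0.117, 0.242 and 0.193. The part of these cell types in the values of the 44 genes was not tested.

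The remaining lists were uneven. Skeletal muscle markers (6 of 8 measured) stood at -0.68 to -0.49 on the high-fat arrays and at 0.30 to 0.76 on the control arrays. Adipocyte markers ranged from 0.00 to 0.35 and from -0.53 to -0.06, and endothelial markers from -0.49 to 1.20 and from -0.89 to 0.16. Those of B cells ranged from -0.16 to 0.14 and from -0.49 to 0.21, and those of T cells from -0.22 to 0.09 and from -0.05 to 0.09. Macrophage markers ranged from -0.17 to 0.08 and from -0.41 to 0.39, and keratinocyte markers from -0.45 to 0.59 and from -0.32 to 0.17. Of these, only the means of the muscle and adipocyte lists did not overlap between diets, and their genes were mixed. In muscle, 4 of 6 were lower on the high-fat diet (median -0.82, range -3.16 to 0.03), 3 of them without overlap. Among adipocyte markers, 6 of 8 were higher (median 0.17, range -0.29 to 1.78). There, 2 genes lay wholly above the controls and 1 wholly below. The part of both lists in the 44 genes' values was not tested.

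The values also differed by slide and by mouse. The slide with both diets held high-fat replicates 2 and 3 and control replicate 1. On it, all 16 S-phase genes were lower on high-fat replicate 3 than on control replicate 1, by a median of -0.36, and 14 of 16 were higher on high-fat replicate 2 than on it, by a median of 0.15. The mitotic genes split less widely, with 18 of 28 lower on high-fat replicate 3 (median -0.02) and 16 of 28 higher on high-fat replicate 2 (median 0.07). Averaged over all genes, high-fat replicate 3 differed from control replicate 1 by 0.04 and high-fat replicate 2 by -0.0015. The share of all genes on each side was not counted. Averaging the high-fat mice of that slide, the difference from control replicate 1 had a median of -0.10 in the S-phase genes (3 of 16 positive) and 0.03 in the mitotic genes (17 of 28 positive), against 0.03 in all genes. Among the controls, 15 of 16 S-phase genes and 20 of 28 mitotic genes were higher on control replicate 1 than on the mean of the other slide's controls, with medians of 0.26 and 0.15, against -0.09 in all genes. What is particular to those controls and what is particular to their slide cannot be told apart.

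Without high-fat replicate 3, 9 of 44 genes were higher at an unadjusted p under 0.05, against 9.5% of all genes, and in 22 of 44 the diets did not overlap with the high-fat values above, against 22.6%. Without control replicate 1 these counts were 9 (background 10.2%) and 17 (background 19.9%). When high-fat replicate 1 was left out, 0 of 44 genes were higher at an unadjusted p under 0.05, against 2.72% of all genes. The count was also 0 when high-fat replicate 2 (background 4.15%), control replicate 2 (3.85%) or control replicate 3 (2.06%) was left out. With slide as a block it was 0 as well, against 2.55%. Leaving out high-fat replicate 1 or control replicate 2 brought the median difference of the 44 genes to 0.10, and leaving out high-fat replicate 3 brought it to 0.25. The median of the S-phase genes ran from 0.07 (without control replicate 2) to 0.35 (without high-fat replicate 3), and that of the mitotic genes from 0.11 (without high-fat replicate 1) to 0.22 (without high-fat replicate 3). The adjusted test called 0 of 44 genes in each of these 6 fits.

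Of the 44 genes, 10 had more than 1 probe, 24 probes in all, and the choice among them changed the size of the difference. Values above come from the brightest probe of each gene. The SEs in this comparison come from a fit over all probes rather than over genes, and so differ slightly from those above. Each dimmer probe was compared with the brightest, so that Birc5, Ccnb1, Cdk1 and Mad2l1 entered more than once. In 13 of 14 comparisons the dimmer probe gave the more positive difference, by a median of 0.31. Among 4193 named genes with several probes, each entered once, by its dimmest probe. That probe gave the more positive difference in 68.3%, by a median of 0.11, a share counted in another unit. For Ccnb1 the brightest probe differed by 0.08 (SE 0.14), and the other probes by 0.62 (SE 0.28) and 0.64 (SE 0.25). For Mad2l1 the brightest gave 0.14 (SE 0.14) and the others 0.59 (SE 0.24) and 0.45 (SE 0.24). For Cdk1 the brightest gave 0.17 (SE 0.13) and the others 0.48 (SE 0.20) and 0.51 (SE 0.19). In these 3 genes the dimmer probes lay closer to each other than to the brightest.

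Birc5 gave 0.13 on its brightest probe and 0.45 and 0.47 on the others, and Cdca8 gave 0.20 (SE 0.15) and 0.55 (SE 0.16). Smaller gaps were seen for Ccne1 (0.05 and 0.30), Foxm1 (0.06 and 0.23), Tpx2 (0.19 and 0.35) and Mki67 (0.01 and 0.15). Cdc6 alone ran the other way, with 0.41 on its brightest probe and 0.17 on the other. With the dimmest probe in place of the brightest, a choice made after the values were seen, 7 of 44 genes were higher at an unadjusted p under 0.05, against 6.46% of all genes, and 5 did not overlap, against 9.18%. The median of the mitotic genes was then 0.32. With the mean of a gene's probes, 5 of 44 were higher at that p, against 6.24%.

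**Figure D4:**
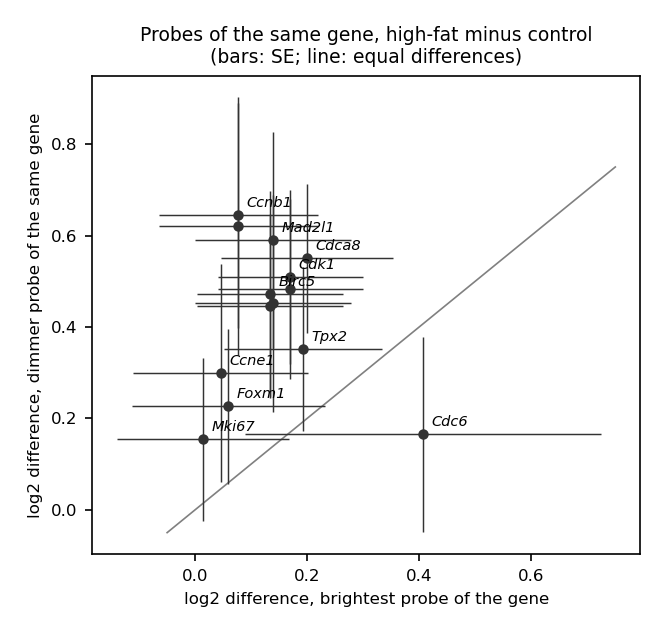
Each point sets the log2 diet difference of a gene's brightest probe (x axis) against that of a dimmer probe of the same gene (y axis), with bars for the SE and a line of equal differences. Of the 14 points from 10 genes, 13 lie above the line, and only that of Cdc6 lies below it.

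Other genes of the same machinery gave values of like size. Of 45 further replication genes, 35 had positive differences, against 49.0% of all genes, with a median of 0.12, and 0 reached an unadjusted p of 0.05. The smallest p were those of Orc2 and Orc4, subunits of the origin recognition complex, at 0.71 (SE 0.30) and 0.45 (SE 0.19), Gins3 at 0.41 (SE 0.18) and Dbf4, the activator of the kinase CDC7, at 0.56 (SE 0.29). Within the slide that held both diets, Orc2 differed by -0.07, Orc4 by 0.07, Gins3 by 0.02 and Dbf4 by -0.17. Of 47 further mitosis genes, 42 had positive differences, with a median of 0.17, and 3 were higher at an unadjusted p under 0.05, against 5.88% of all genes. In 9 of the 47 the diets did not overlap with the high-fat values above, against 8.47%. The 3 were Ckap2l, a spindle protein, at 0.65 (SE 0.24), Knl1, the kinetochore scaffold, at 0.66 (SE 0.27), and Dlgap5, a spindle microtubule protein, at 0.33 (SE 0.14). Sgo2a, a protector of cohesion, differed by 0.34 (SE 0.15). Within the slide Ckap2l differed by 0.10, Knl1 by -0.01, Dlgap5 by 0.14 and Sgo2a by 0.16. Of 24 G1 cyclin, E2F and RB family genes, 14 had positive differences, with a median of 0.06 and 0 at an unadjusted p under 0.05. The smallest p among them belonged to Lin52 (-0.31), Cdc25a (0.37), Cdk2 (0.34) and Tfdp1 (0.42). Within the slide these were -0.03, 0.04, -0.01 and -0.17, and the dimmest probe of Lin52 gave 0.43. With the normexp background these medians were 0.08, 0.11 and 0.04, below that of all genes, and within the slide that held both diets they were -0.09, 0.05 and -0.03.

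The inhibitors of cyclin-dependent kinases differed the opposite way. Of 8 measured, 6 had negative differences, with a median of -0.54, against -0.01 for all genes. At an unadjusted p under 0.05, 3 were lower on the high-fat diet, against 7.46% of all genes, and the same 3 did not overlap between diets, against 8.75%, while 0 passed the adjusted test in limma. Cdkn2a, the Ink4a/Arf gene, read -0.52, -1.48 and 0.26 on the high-fat diet and 0.97, 0.62 and 1.27 on the control diet. Its difference was -1.53 (SE 0.44, limma p 0.012, adjusted p 0.295). Its second probe gave -1.43.

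Cdkn2b, its neighbour encoding p15, read 1.40, 0.87 and 1.95 against 1.96, 2.14 and 2.39. Its difference was -0.75 (SE 0.29, limma p 0.037, adjusted p 0.358), and high-fat replicate 3 lay only just below control replicate 1. Cdkn2c, which encodes p18, read -0.94, -0.59 and -0.69 against -0.17, -0.39 and -0.10, a difference of -0.52 (SE 0.15, limma p 0.012, adjusted p 0.295). Cdkn2d, which encodes p19, differed by -0.57 (SE 0.32) and overlapped, and within the slide that held both diets it differed by 0.19. Within that slide Cdkn2a differed by -1.58, Cdkn2b by -0.54 and Cdkn2c by -0.47, and with each mouse left out in turn Cdkn2a stayed between -1.95 and -1.08. Cdkn1a, the p53 target p21, read 0.52, 0.91 and 1.38 against 0.92, 1.23 and 1.21, a difference of -0.19 (SE 0.24). Its direction did not hold: it was 0.22 within the slide, 0.02 without high-fat replicate 1, and 0.20 on its second probe, which was above background on 4 arrays. The fibroblast markers, with negative differences in 8 of 8 genes, had the same sign as most of the inhibitors. The fibroblast mean on high-fat replicate 3 (0.20) nonetheless lay above that on control replicate 1 (0.06). The part of the fibroblast markers in these values was not tested.

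**Figure D5:**
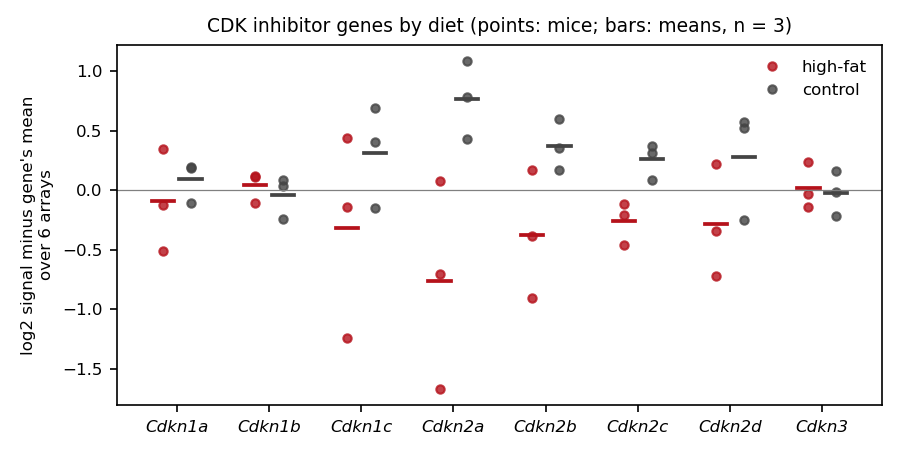
For each of 8 genes encoding inhibitors of cyclin-dependent kinases (x axis), points give the log2 signal of each mouse minus the gene's mean over the 6 arrays (y axis), high-fat in red and control in grey, with bars at the means of 3 mice. All 3 high-fat points lie below all 3 control points for Cdkn2a, Cdkn2b and Cdkn2c.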

How the data were processed

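Gene expression in mammary gland RNA of 6 mice was measured on single-colour (Cy3) Agilent arrays. The authors read them with Agilent Feature Extraction 11.0.1.1, per the submitters' processing notes, and deposited scanner files with 44397 spots per array, each with a linear intensity as processed (background-subtracted) signal and as median spot and background signals. For 30608 probes a deposited table also holds intensity values, without log or centring: 99.9% of them were within 1% of a fixed ratio to the array's processed signal, close to 1 over its 75th percentile. Its column medians were 0.134, 0.134 and 0.137 for the high-fat and 0.134, 0.140 and 0.134 for the control arrays.

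Control spots and outlier spots were left out and spots of a probe averaged. Of 39429 probes, 111 lacked a usable spot on some array and were not used. Log2 processed signal was taken relative to the array's 75th percentile. The 28689 probes well above background on at least 3 arrays were kept, and the brightest probe of each gene was used, leaving 23460 genes or unnamed transcripts. Probes were named through their RefSeq accessions in a gene table of build GRCm38.p6, with 27427 of 39429 matching 1 symbol. Diets were compared over all genes in R 4.3.3 with limma 3.58.1, through lmFit and then eBayes, as a two-sided test without covariates. P-values were adjusted by Benjamini and Hochberg's method, with a threshold of 0.05. An exact permutation test of 3 mice against 3 cannot go below 0.1. The script was tested on simulated data.

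The members and the companion and marker lists were chosen with earlier results of these data known, so their values are described without a test of any list. All 44 genes may be named. Those with the 6 largest positive or any negative difference, or an unadjusted p under 0.05, are given in full, and the 4 genes with the smallest p of other lists are named where they are described. Cdkn1a and the second probes of Cdkn1a and Cdkn2a were added after their values were seen. Alternatives covered scaling, background (normexp with an offset of 50, on median spot signals), the filter, the probe rule, the variance settings, slide and replicate blocks, the deposited table and leaving out each array.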

Additional observations from a re-analysis of the deposited data

How the results depend on the processing

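The 6 arrays limit what can be seen, and 0 of 44 genes passed the adjusted test under any of the 20 alternatives or in the fit reported. The deposited table and the variance settings kept the counts and medians of the 44 genes close to those reported. Without a filter on dim probes, 34 of 44 stood above the median of all genes, against 41, and their median relative to it was 0.14, against 0.19. The count of genes higher at an unadjusted p under 0.05 was 3 as reported, against 5.88% of all genes. It was 0 with the normexp background and the 75th percentile. There 1101 of 23460 genes passed that p in either direction, against 3129 in the fit reported. The count was 0 with slide as a block (2.55% of all genes) and 5 with the mean of probes (6.24%). With the dimmest probe, a rule chosen after seeing the data, it was 7 (6.46%). The count of genes whose diets did not overlap, with high-fat higher, was 1 with median scaling, for which the share of all genes was not counted. It was 5 with the dimmest probe, against 9.18% of all genes, and that probe raised the median of the mitotic genes to 0.32. Whether replicate numbers pair the mice is not settled by the values. The deviations of same-numbered mice correlated at 0.33, -0.14 and 0.25, and those of differently numbered mice at -0.38 to 0.23. With the replicate number as a block 6 genes were higher at an unadjusted p under 0.05, against 7.75% of all genes.

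With slide as a block, each difference is that of high-fat replicates 2 and 3 from control replicate 1 alone. Only their slide held both diets, so this repeats the values given above within that slide. In that fit 20 of the 44 differences were positive, and the median was -0.022 over all 44 and 0.030 over the mitotic genes. Signs then turned for Mcm2 (-0.028), Mcm3 (-0.16), Mcm4 (-0.24), Mcm6 (-0.095), Mcm7 (-0.049), Cdc6 (-0.17), Cdt1 (-0.015), Gins1 (-0.13), Gins2 (-0.063), Rrm2 (-0.45), Ccne1 (-0.11), Ccna2 (-0.056), Ccnb1 (-0.099), Ccnb2 (0.077), Foxm1 (-0.057), Plk4 (-0.011), Ttk (-0.093), Cenpf (-0.27), Kif20a (-0.030), Prc1 (-0.036), Anln (-0.22), Mki67 (-0.16), Top2a (-0.10), Cdkn2d (0.19), Cdkn1a (0.22), Orc2 (-0.072), Dbf4 (-0.17), Knl1 (-0.013), Cdk2 (-0.013) and Tfdp1 (-0.17). With the normexp background and the 75th percentile, which moved the median of all genes to 0.27, they turned for Mcm6 (-0.021), Cdt1 (-0.080), Tyms (0.24), Ccne1 (-0.049), Ccnb1 (-0.033), Foxm1 (-0.025), Plk1 (-0.12), Aurka (-0.089), Cenpe (-0.12), Cdc20 (-0.088), Birc5 (-0.0035), Prc1 (-0.11), Anln (-0.13) and Mki67 (-0.11). Ccnb2 turned to 0.014 with quantile normalization, 0.015 with median scaling and 0.013 with the percentile over probes detected on all arrays. With normexp and quantile normalization, Ccnb2 was 0.016 and E2f1 0.00017. With the mean of probes Lin52 was 0.044 and Cdkn1a 0.0071, and with the dimmest probe 0.43 and 0.20. The cause was not tested.

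With each array left out in turn, genes higher at an unadjusted p under 0.05 numbered 0 to 9, and genes without overlap 3 to 22 with high-fat higher and 0 to 1 with high-fat lower. Differences whose sign turned ran from -0.040 to 0.25 for Mcm6, -0.022 to 0.15 for Cdt1, -0.020 to 0.29 for Gins1, -0.11 to 0.0083 for Tyms, -0.19 to 0.21 for E2f1, -0.033 to 0.14 for Ccne1, -0.078 to 0.062 for Ccnb2, -0.047 to 0.20 for Foxm1, -0.079 to 0.12 for Plk1, -0.057 to 0.10 for Aurka, -0.050 to 0.075 for Cenpe, -0.031 to 0.44 for Cenpf, -0.059 to 0.16 for Cdc20, -0.072 to 0.047 for Prc1, -0.081 to 0.13 for Anln, -0.084 to 0.069 for Mki67 and -0.41 to 0.021 for Cdkn1a.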
